A study of Mus musculus with 8 samples.

Results

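The genes described here are 9 surface markers and receptors by which mouse haematopoietic stem cells are recognised or sorted, namely Procr, Ly6a, Kit, Slamf1, Cd48, Cd34, Esam, Tek and Fgd5. They were chosen by name, and all 9 were found among the 33641 gene symbols measured in each library. All 9 were also among the 16064 genes tested, those reaching 1 TPM in 2 or more of the 8 libraries (TPM counts transcripts per 1000000, corrected for transcript length). RNA was measured in stem cells sorted from bone marrow of C57BL/6 mice. The 4 genotypes were the triple null, with Scribble, Taz and Yap1 deleted (Scribble-/-;Taz-/-;Yap1-/-), the Scribble null (Scribble-/-), the Yap1 Taz null (Taz-/-;Yap1-/-) and wild type, with 2 libraries each. Every group, wild type included, carried Mx1-Cre, a recombinase under an interferon-responsive promoter that is active in other cells besides blood. Every group had also received 6 intraperitoneal injections of polyI:C, an interferon inducer that mimics viral RNA, given on alternate days at a dose of 10 mg/kg. Cells were sorted 1 week after that induction. For age, sex and the sorting gate, the sources used here give no information. The table headers carry the word SLAM with no gate, so a marker that was gated on had its level bounded by the sort.

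Stem cells of the bone marrow are separated from their progeny by combinations of such proteins. Slamf1 and Cd48 are members of the SLAM family of immunoglobulin-type receptors, and long-term stem cells carry the first and lack the second. Kit, the receptor for stem cell factor, and Ly6a, the Sca-1 antigen, together define the compartment that holds stem cells and early progenitors, within which Cd34 and Cd48 are gained as self-renewal is lost. Procr, Esam, Tek and Fgd5 are shared between stem cells and endothelium and serve as further stem cell markers or reporters.

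The upstream sequences of Procr and Cd48 are shown, since Procr was the gene with a difference that passed the test and Cd48 was the one upstream sequence holding the TEAD letters described next. Both are the 250 bases before the RefSeq start on build GRCm38.p6, from the plus strand, at chr2:155750967-155751216 for Procr and chr1:171681742-171681991 for Cd48. Capitals mark motif letters.
Procr: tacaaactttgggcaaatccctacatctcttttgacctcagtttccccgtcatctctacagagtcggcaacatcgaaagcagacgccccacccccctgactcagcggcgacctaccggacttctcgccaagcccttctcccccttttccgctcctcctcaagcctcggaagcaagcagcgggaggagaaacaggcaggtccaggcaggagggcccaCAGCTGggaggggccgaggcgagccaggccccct
Cd48: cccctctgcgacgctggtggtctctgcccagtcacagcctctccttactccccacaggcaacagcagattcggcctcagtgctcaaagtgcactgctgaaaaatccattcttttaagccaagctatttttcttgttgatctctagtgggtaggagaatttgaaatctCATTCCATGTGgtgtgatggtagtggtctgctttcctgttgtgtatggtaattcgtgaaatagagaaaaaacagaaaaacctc
In Procr the capitals are an E-box, CANNTG, at bases -34 to -29 from the RefSeq start. The GENCODE M21 annotation starts Procr earlier, at chr2:155751117, inside this window, so the E-box lies past that start. In Cd48 they are the letters GGAATG, the core bound by TEAD factors, the DNA-binding partners of Yap1 and TAZ, on the reverse strand at -83 to -78, followed by an E-box at -78 to -73 that overlaps them by its first base. RefSeq entries were found for 7 of the 9 genes, Ly6a and Esam being named only. Both strands were searched for 5 motifs. The E-box stood in Slamf1, Cd48, Tek and Procr, and in 66.0% of the 27025 upstream sequences of all genes. GGAATG stood in Cd48, against 12.6% of all genes. The interferon-response letters, GAAA followed after any 2 bases by GAAA (3.04% of all genes), the STAT letters TTCNNNGAA (7.18%) and the GATA letters AGATAA (10.3%) matched none of the 7 within these windows. These matches describe letters and not binding.

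Across the 8 libraries the genes covered a wide range of levels, in TPM, which is scaled per transcript length. Kit had the highest median over all libraries, with a lowest value of 268, a median of 402 and a highest of 532 TPM, and it ranked between the 97.4th and 98.6th percentile of the genes tested. Ly6a had a lowest value of 148, a median of 227 and a highest of 417 TPM, and it was above Kit in wild type. Procr, Cd34, Slamf1 and Esam had medians of 107, 74.2, 64.5 and 52.5 TPM. Tek and Fgd5 had medians of 27.1 and 26.9 TPM. Cd48 was the lowest, with a median of 2.34 TPM and percentiles of 12.1 to 25.6. With the libraries pooled, the range of each gene from Kit to Fgd5 overlapped that of its neighbour in this order. Within libraries, Ly6a was above Procr in all 8, most narrowly in the first Scribble null library, at 148 against 142 TPM. None of the other neighbours kept its order in every library. Cd48 lay below every other gene in all libraries.

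Each library held between 14024 and 14970 genes at 1 TPM or more, but sequencing depth cannot be read from TPM and remained unknown. Whether both libraries of a genotype came from different mice is not labelled. P-values therefore reflect the spread between libraries alone, and that spread may be technical. Replicates correlated at 0.953 to 0.965 across genes, and the second Scribble null library correlated more closely with a library of another genotype, at 0.958, than with its replicate. Transcript levels of the targeted genes did not separate the genotypes. Scrib was 14.5 and 7.54 TPM in the triple null, 6.25 and 7.63 in the Scribble null, 7.98 and 7.32 in the Yap1 Taz null and 8.19 and 9.29 in wild type, and Yap1 was 2.25 and 2.37 TPM in the triple null, 5.83 and 2.45 in the Scribble null, 2.13 and 6.63 in the Yap1 Taz null and 2.00 and 2.15 in wild type. Wwtr1, which encodes TAZ, was 1.92 and 0.775 TPM in the triple null, 5.32 and 3.91 in the Scribble null, where it is not a target, 1.09 and 1.15 in the Yap1 Taz null and 0.730 and 1.19 in wild type. Genotypes are therefore given as labelled, and every direction given is one between libraries labelled so. Y-linked Eif2s3y was 4.16 and 4.63 TPM in the Yap1 Taz null and at least 45.8 TPM in every other library, so in comparisons with the Yap1 Taz null the genotype and the sex of the animals cannot be told apart. The same holds for any other value that the Yap1 Taz null enters.

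Slamf1 was well above Cd48 in every library. The gate is not given, and a sort on these markers would bound this gap in advance. The gap therefore cannot test whether the cells were of the labelled type. Slamf1, a self-ligand receptor that marks long-term stem cells, was at 76.2 and 72.9 TPM in the triple null, 57.7 and 60.5 TPM in the Scribble null, 60.8 and 68.3 TPM in the Yap1 Taz null, and 70.9 and 55.9 TPM in wild type. The triple null libraries were the highest of the 8, and the Scribble null and Yap1 Taz null libraries overlapped wild type. The differences from wild type on the log2(TPM + 1) scale were 0.24 ± 0.16 (SE) in the triple null, -0.09 ± 0.16 in the Scribble null and 0.03 ± 0.16 in the Yap1 Taz null, and none passed the test (limma, adjusted p = 0.629, 0.802 and 0.948). The sign of the Yap1 Taz null difference turned under median-ratio scaling, to -0.13.

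Cd48, the ligand of Cd244 and the marker that stem cells lack, was at 1.21 and 2.37 TPM in the triple null, 1.61 and 3.30 TPM in the Scribble null, 2.67 and 1.83 TPM in the Yap1 Taz null, and 2.31 and 2.90 TPM in wild type. All groups overlapped. Its differences from wild type were -0.40 ± 0.39, -0.10 ± 0.39 and -0.16 ± 0.39 in the triple, Scribble and Yap1 Taz nulls (limma, adjusted p = 0.744, 0.918 and 0.881), and the interval of the first ran from -1.30 to 0.51. The ratio of Slamf1 to Cd48, both in TPM, was 62.9 and 30.8 in the triple null, 35.7 and 18.3 in the Scribble null, 22.8 and 37.3 in the Yap1 Taz null, and 30.8 and 19.3 in wild type. Slamf1 exceeded Cd48 at least 18.3 times in every library, a gap that a sort on these markers would bound. The ratio overlapped wild type in the Scribble null and the Yap1 Taz null, and the lower triple null library was level with the higher wild-type one.

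Slamf1 and Cd48 lie beside each other in the SLAM cluster of chromosome 1, at chr1:171767127-171801184 and chr1:171682009-171705258 (GRCm38, both on the plus strand, GENCODE M21). Of the 9 cluster genes, Cd84 (62.2 to 85.2 TPM) was as abundant as Slamf1, and Ly9 was at 3.16 to 17.5 TPM. Cd244, the receptor for Cd48 and a marker of multipotent progenitors, was at 1.90 and 2.59 TPM in the triple null, 3.79 and 1.13 TPM in the Scribble null, 2.35 and 3.53 TPM in the Yap1 Taz null, and 0.461 and 0.704 TPM in wild type. All null libraries of Cd244 were above both wild-type ones, but its differences from wild type did not pass the test (limma, adjusted p = 0.448, 0.274 and 0.248 in the triple, Scribble and Yap1 Taz nulls). Cd244 overlaps Ly9 on the opposite strand, and the sources used here do not say whether quantification used strand. The 4 SLAM family genes tested besides Slamf1 and Cd48, namely Ly9, Cd84, Cd244 and Slamf8, had no call in any comparison (limma). At an unadjusted p under 0.05 the counts were 2, 2 and 1 of the 4 in the triple, Scribble and Yap1 Taz nulls against wild type. The shares over all genes were 10.9%, 18.2% and 14.3%.

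**Figure D1:**
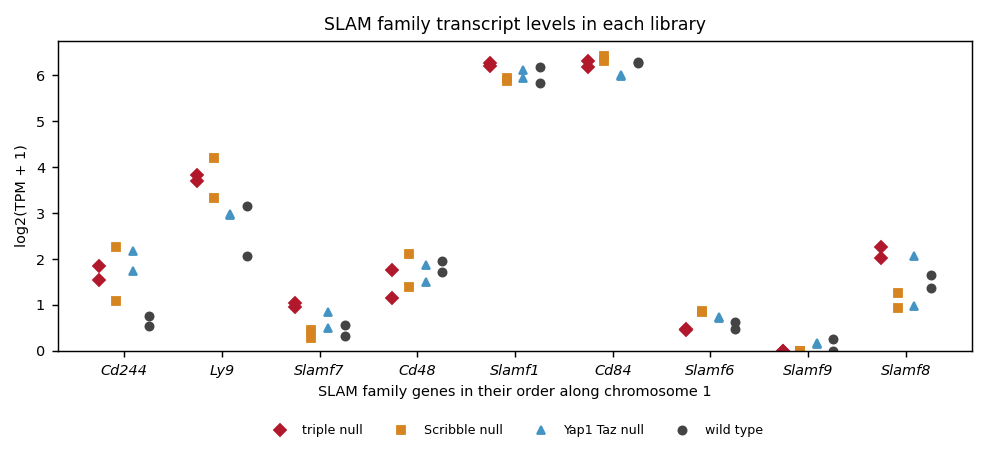
Levels of the SLAM family genes as log2(TPM + 1), with 1 point per library and the genotypes side by side for each gene. Slamf1 (55.9 to 76.2 TPM) and Cd84 (62.2 to 85.2 TPM) stood above the others in all 8 libraries, and Cd48 (1.21 to 3.30 TPM) stayed low.

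Kit, the stem cell factor receptor (chr5:75574916-75656722, plus strand), was at 466 and 429 TPM in the triple null, 384 and 401 TPM in the Scribble null, 403 and 532 TPM in the Yap1 Taz null, and 268 and 281 TPM in wild type. All 6 null libraries lay above both wild-type libraries, a pattern that 13.1% of all genes tested shared. The differences from wild type were 0.70 ± 0.14 in the triple null, 0.52 ± 0.14 in the Scribble null and 0.76 ± 0.14 in the Yap1 Taz null, or 1.63-, 1.43- and 1.69-fold, and none passed the test (limma, adjusted p = 0.113, 0.130 and 0.0685). The intervals were 0.37 to 1.04, 0.18 to 0.85 and 0.42 to 1.09. In bulk RNA such as this, fewer cells of a type and less RNA per cell cannot be told apart. The median of all genes tested was itself 0.12, 0.14 and 0.14 above wild type in the triple, Scribble and Yap1 Taz nulls, and median-ratio scaling, which takes that shift away, left Kit at 0.57, 0.36 and 0.59. The 3 comparisons share the wild-type libraries, so they are not independent. Between null genotypes Kit differed by 0.19 ± 0.14 for the triple null against the Scribble null and by -0.05 ± 0.14 against the Yap1 Taz null (limma, adjusted p = 0.747 and 0.961).

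Tek, the Tie2 receptor for angiopoietins that is linked to stem cell quiescence (chr4:94739289-94874976, plus strand), was at 66.0 and 26.8 TPM in the triple null, 40.8 and 24.8 TPM in the Scribble null, 32.6 and 23.8 TPM in the Yap1 Taz null, and 13.6 and 27.4 TPM in wild type. Replicates stood far apart, above all in the triple null, and all groups overlapped. The difference from wild type was 1.09 ± 0.48 in the triple null (95% interval -0.01 to 2.18; limma, adjusted p = 0.460), 0.69 ± 0.48 in the Scribble null and 0.50 ± 0.48 in the Yap1 Taz null (adjusted p = 0.480 and 0.661). Without the first triple null library the triple null difference was 0.45, and without the second it was 1.72. With 1 library left out, the difference ran from 0.21 to 1.17 in the Scribble null and from 0.022 to 0.98 in the Yap1 Taz null, and none passed.

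Their ligands and related receptors had levels of their own. Angpt1, an activating ligand of Tek, was at 162 to 213 TPM across the libraries, and the paralogous receptor Tie1 at 39.1 to 55.4 TPM. Kitl, the ligand of Kit, did not exceed 1.09 TPM and was not tested, and Flt3, the receptor gained by multipotent progenitors, was at 6.51 to 12.3 TPM, at least 32.6 times below Kit in every library. Of the 27 ligands, partners and signalling proteins tested, Dok2, an adaptor that restrains receptor tyrosine kinases, was the one called, and it fell in the Scribble null, at 21.2 and 30.6 TPM against 70.0 and 64.3 TPM in wild type (log2 difference -1.36 ± 0.19; limma, adjusted p = 0.0210).

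Ly6a, the glycolipid-anchored Sca-1 antigen (chr15:74994877-74998031, minus strand), was at 223 and 255 TPM in the triple null, 148 and 231 TPM in the Scribble null, 176 and 201 TPM in the Yap1 Taz null, and 359 and 417 TPM in wild type. Kit exceeded Ly6a 1.68 to 2.65 times in the 6 null libraries and was 0.745 and 0.673 of it in wild type. All 6 null libraries lay below both wild-type libraries, which 4.87% of all genes tested shared. The differences from wild type were -0.70 ± 0.21 in the triple null, -1.06 ± 0.21 in the Scribble null and -1.04 ± 0.21 in the Yap1 Taz null, or 0.617, 0.479 and 0.487 of the wild-type level, and none passed the test (limma, adjusted p = 0.280, 0.0596 and 0.0851). Ly6a passed in the Scribble null and in the Yap1 Taz null under median-ratio scaling, which moved the differences to -1.22 and -1.20 (adjusted p = 0.0283 and 0.0369). It passed in both with the replicate block (0.0381 and 0.0391), and in the Scribble null with the filter of 5 TPM (0.0406). It also passed in the Scribble null without the second Scribble null library (adjusted p = 0.0153), and in the Yap1 Taz null without either Scribble null library (0.0229 and 0.0231), which enter that comparison through the shared spread alone. Over the 19 alternative settings its adjusted p ran from 0.0153 to 0.254 in the Scribble null and from 0.0229 to 0.330 in the Yap1 Taz null.

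The Ly6a level in the triple null was above the sum of the separate changes. The departure from additivity was 1.40 ± 0.30 (95% interval 0.72 to 2.09), against a median of -0.15 over all genes, and it did not pass the test (limma, adjusted p = 0.103). Without the second Scribble null library it was 1.72 and passed (adjusted p = 0.0237). Triple null libraries of Ly6a were above both Yap1 Taz null libraries and overlapped those of the Scribble null, with differences of 0.34 ± 0.21 and 0.37 ± 0.21 (adjusted p = 0.753 and 0.658).

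The Ly6a neighbours on chromosome 15 did not share one pattern. Ly6e was at 1640 and 1470 TPM in the triple null, 1194 and 1406 TPM in the Scribble null, 1492 and 1385 TPM in the Yap1 Taz null, and 1324 and 1512 TPM in wild type, so it was several times as abundant as Ly6a and its groups overlapped wild type. Ly6c1 was at 0.936 and 0.908 TPM in the triple null, 0.255 and 0.307 TPM in the Scribble null, listed at 0 and at 1.02 TPM in the Yap1 Taz null, and at 2.97 and 10.9 TPM in wild type. None of the 7 other Ly6 family genes tested was called against wild type (limma). At an unadjusted p under 0.05 the counts were 2, 4 and 3 of the 7 in the triple, Scribble and Yap1 Taz nulls. The shares over all genes were 10.9%, 18.2% and 14.3%. Alignment of transcripts found no near-identical copy of any of the 9 genes, and the longest stretch Ly6a shared with another gene at 95% identity, with Ly6c1, covered 3.04% of its transcript.

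The summed level of interferon-induced genes, like the level of Ly6a, itself known to be interferon-responsive, was lower in all 6 null libraries than in wild type, and their part in its level was not tested. Of 32 such genes tested, 4 were called lower in the triple null, 7 in the Scribble null and 7 in the Yap1 Taz null against wild type, and none higher. Over all genes 0.579%, 1.3% and 0.99% were called in either direction. At an unadjusted p under 0.05 the counts were 13, 16 and 12 of the 32, beside 10.9%, 18.2% and 14.3% of all genes. Their median log2 differences were -0.38, -0.33 and -0.29, beside 0.12, 0.14 and 0.14 over all genes tested. Iigp1, an interferon-induced GTPase, was at 33.4 and 33.8 TPM in the triple null, 18.0 and 18.7 TPM in the Scribble null, 24.4 and 21.5 TPM in the Yap1 Taz null, and 76.7 and 73.1 TPM in wild type (limma, adjusted p = 0.0281, 0.00115 and 0.00288). Igtp and Gbp6, of the same kind, also fell in all 3 null genotypes. The departure from additivity was called and positive for 6 of the 32, among them Iigp1, Igtp, Gbp2, Gbp4 and Gbp6, as set against 0.635% of all genes called in either direction. The Yap1 Taz null enters this departure, so genotype and sex cannot be told apart in it. The summed level of the 32 genes was 3012 to 3200 TPM in the triple null, 2587 to 2700 TPM in the Scribble null, 2803 to 2934 TPM in the Yap1 Taz null and 3783 to 3920 TPM in wild type. Ly6e, at 1194 to 1640 TPM, is one of the 32 and part of that sum, and its groups overlapped wild type. Every library had received the same polyI:C course, per the labels' protocols.

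Procr, the endothelial protein C receptor also called EPCR or CD201 (chr2:155751117-155755471, plus strand), differed most between the null genotypes. It was at 149 and 143 TPM in the triple null, 142 and 113 TPM in the Scribble null, 61.1 and 70.2 TPM in the Yap1 Taz null, and 100.02 and 101 TPM in wild type. No group overlapped another, and from high to low the order ran triple null, Scribble null, wild type, Yap1 Taz null. The mean was 146 ± 4.20 TPM in the triple null, 128 ± 20.6 TPM in the Scribble null, 65.7 ± 6.41 TPM in the Yap1 Taz null and 100.6 ± 0.874 TPM in wild type (SD, n = 2 each). Procr was higher in the triple null than in the Yap1 Taz null by 1.15 ± 0.15 on the log2 scale, or 2.21-fold, with a 95% interval of 0.79 to 1.50, and this passed the test (limma, adjusted p = 0.0459). It was the only one of the 9 genes called in a pairwise comparison, in one where 0.181% of all genes were called in either direction and 0.0685% higher. Procr was also the gene of the 9 that passed the test of any difference among the 4 genotypes (limma moderated F, adjusted p = 0.0404), which 1.0% of all genes passed.

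The Procr call sat close to the threshold. It was lost when either triple null, either Yap1 Taz null or either wild-type library was left out (adjusted p = 0.0981 to 0.321), with only the groups compared in the model (0.167), with the replicate block (0.110), with no filter on low values (0.0820), with no trend in the variance (0.146) and in the table of the whole series (0.112), while the difference stayed between 1.03 and 1.24 under all 19 alternative settings. The call of Procr among the 4 genotypes was lost when any library other than the second Scribble null one was left out. Sex markers differed between the same groups: Eif2s3y was 62.1 and 61.0 TPM in the triple null and 4.16 and 4.63 TPM in the Yap1 Taz null.

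The other differences of Procr did not pass. Against the Yap1 Taz null the Scribble null was higher by 0.94 ± 0.15 (limma, adjusted p = 0.0680), where 0.286% of all genes were called. Against wild type Procr differed by 0.53 ± 0.15 in the triple null, 0.33 ± 0.15 in the Scribble null and -0.61 ± 0.15 in the Yap1 Taz null (adjusted p = 0.253, 0.302 and 0.146). The triple null and the Scribble null differed by 0.20 ± 0.15, with an interval of -0.15 to 0.56 (adjusted p = 0.742). The departure of the triple null from additivity was 0.82 ± 0.22 (interval 0.32 to 1.31; adjusted p = 0.163).

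The genes whose levels were most like Procr over the 8 libraries, among 8482 genes with a mean of at least 10 TPM, were Gm2a (Pearson r = 0.976), Rab6b (0.975) and Nadsyn1 (0.948), libraries of a genotype not being independent points. Rab6b was at 20.4 and 21.3 TPM in the triple null, 20.1 and 18.5 TPM in the Scribble null, 4.69 and 5.95 TPM in the Yap1 Taz null, and 10.7 and 9.89 TPM in wild type. Gm2a was at 48.9 and 39.95 TPM in the triple null, 50.8 and 37.0 TPM in the Scribble null, 19.9 and 22.1 TPM in the Yap1 Taz null, and 29.9 and 33.5 TPM in wild type. Both were lowest in the Yap1 Taz null, as Procr was, which follows from choosing them for likeness to it. Among the 9 genes Procr was closest to Cd34 (r = 0.76), Cd34 was as close to Esam (r = 0.76), and Kit and Ly6a ran most opposite (r = -0.70), all over 8 libraries. For the other 8 genes the closest were Tbxas1 for Kit (0.980), Prdx2 for Ly6a (0.985), Apbb1ip for Slamf1 (0.959), Inf2 for Cd48 (0.942), Suco for Tek (0.974), Atp6v1g1 for Cd34 (0.938), Taf6l for Esam (0.956) and Mtif3 for Fgd5 (0.944). Each was picked as the highest r among the 8482 genes, so a high value comes in part from the picking.

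**Figure D2:**
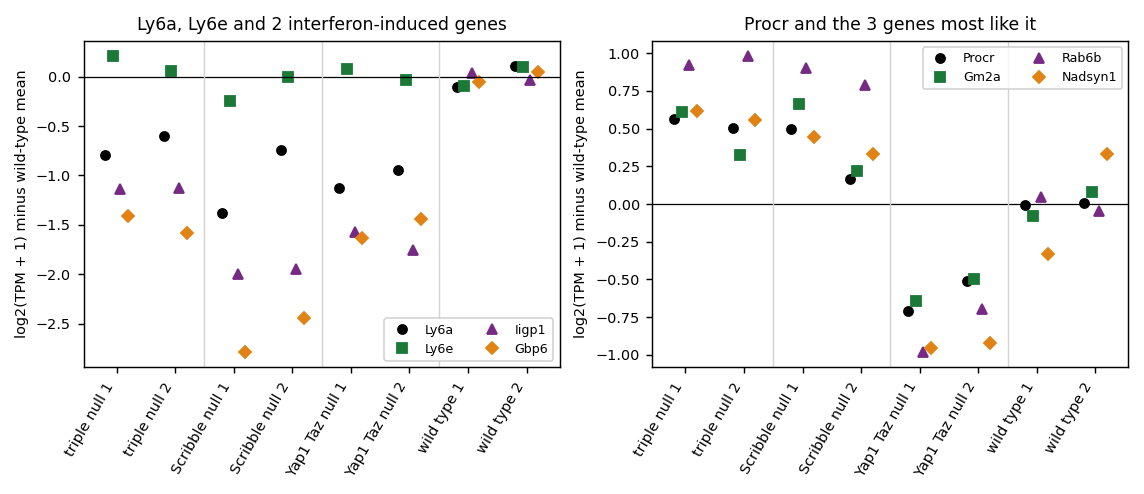
Level in each library as log2(TPM + 1) minus the mean of the wild-type libraries, for Ly6a with Ly6e, Iigp1 and Gbp6 (left) and for Procr with Gm2a, Rab6b and Nadsyn1 (right), with 1 point per gene and library. Ly6a, Iigp1 and Gbp6 were below wild type in all 6 null libraries while Ly6e lay near 0, and Procr and the 3 genes chosen for likeness to it were lowest in the Yap1 Taz null.

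Cd34, a sialomucin that is low on long-term stem cells and gained by their immediate progeny (chr1:194938819-194961279, plus strand), was at 76.3 and 77.6 TPM in the triple null, 93.2 and 78.4 TPM in the Scribble null, 65.6 and 47.0 TPM in the Yap1 Taz null, and 72.0 and 70.4 TPM in wild type. No group overlapped another, and the order of the groups differed from that of Procr in that the Scribble null was the highest. The differences from wild type were 0.11 ± 0.18, 0.26 ± 0.18 and -0.35 ± 0.18 in the triple, Scribble and Yap1 Taz nulls (limma, adjusted p = 0.871, 0.495 and 0.429). Median-ratio scaling turned the sign in the triple null, to -0.023. The largest pairwise difference was 0.61 ± 0.18 for the Scribble null against the Yap1 Taz null, followed by 0.46 ± 0.18 for the triple null against the Yap1 Taz null, and neither passed (adjusted p = 0.303 and 0.549). An annotated antisense gene overlaps Cd34.

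Esam, an adhesion molecule of endothelium and stem cells (chr9:37528078-37538319, plus strand), was at 46.6 and 51.8 TPM in the triple null, 56.6 and 69.7 TPM in the Scribble null, 53.2 and 35.8 TPM in the Yap1 Taz null, and 54.2 and 50.3 TPM in wild type. The Scribble null libraries were the highest of the 8. The differences from wild type were -0.09 ± 0.21, 0.26 ± 0.21 and -0.25 ± 0.21 in the triple, Scribble and Yap1 Taz nulls (limma, adjusted p = 0.920, 0.558 and 0.622). Fgd5, a guanine nucleotide exchange factor for Cdc42 inside the cell whose locus is used as a stem cell reporter (chr6:91978878-92076004, plus strand), was at 24.5 and 29.2 TPM in the triple null, 29.3 and 33.0 TPM in the Scribble null, 20.1 and 24.6 TPM in the Yap1 Taz null, and 29.6 and 20.6 TPM in wild type. All 3 null genotypes overlapped wild type for Fgd5, with differences of 0.11 ± 0.23, 0.32 ± 0.23 and -0.15 ± 0.23 (adjusted p = 0.903, 0.506 and 0.805), and the sign in the triple null turned to -0.021 under median-ratio scaling. An antisense gene overlaps Fgd5 in the annotation as well.

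**Figure D3:**
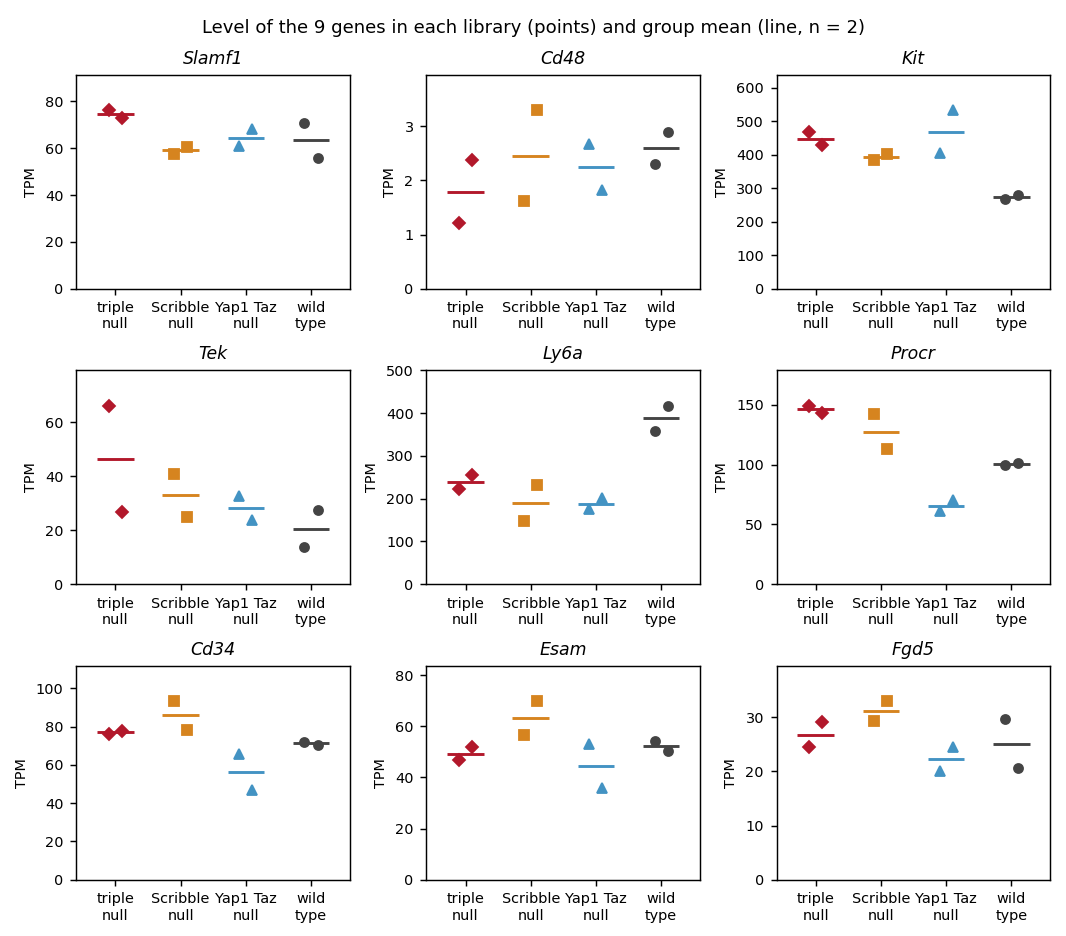
TPM of the 9 genes in each library (points) with the mean of the 2 libraries of a genotype (line), on axes that start at 0. Kit was lowest and Ly6a highest in wild type, Procr was 61.1 and 70.2 TPM in the Yap1 Taz null and at least 100.02 TPM elsewhere, and the libraries of Tek and Cd48 spread widely within genotypes.

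Set against wild type, none of the 9 genes passed the test in the triple null, the Scribble null or the Yap1 Taz null, where 0.579%, 1.3% and 0.99% of all genes did (limma). At an unadjusted p under 0.05 the counts were 3, 2 and 3 of the 9, against 10.9%, 18.2% and 14.3% of all genes. Kit and Ly6a were among them in all 3 comparisons, and Procr in the triple null and the Yap1 Taz null. Libraries did not overlap wild type for 5, 5 and 4 of the 9 genes, against 45.1%, 48.9% and 46.6% of all genes. Between null genotypes the counts of genes with no overlap were 6 of 9 for the triple null against the Scribble null, 4 for the triple null against the Yap1 Taz null and 6 for the Scribble null against the Yap1 Taz null, beside 40.1%, 40.0% and 38.8% of all genes. None of the 9 passed for the triple null or the Scribble null against each other, or for the Scribble null against the Yap1 Taz null, where 0.212% and 0.286% of all genes did (limma), and 1, Procr, passed for the triple null against the Yap1 Taz null. At an unadjusted p under 0.05 the counts were 0, 3 and 2 of the 9, against 9.15%, 10.4% and 8.41% of all genes. The departure from additivity passed for none of the 9, against 0.635% of all genes, and had an unadjusted p under 0.05 for 3, Ly6a, Procr and Kit, against 14.5%. In the test of any difference among the genotypes 3 of the 9 had an unadjusted p under 0.05, against 15.5%. With 2 libraries a side, a two-sided exact permutation test of a single gene cannot go below p = 0.333.

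**Figure D4:**
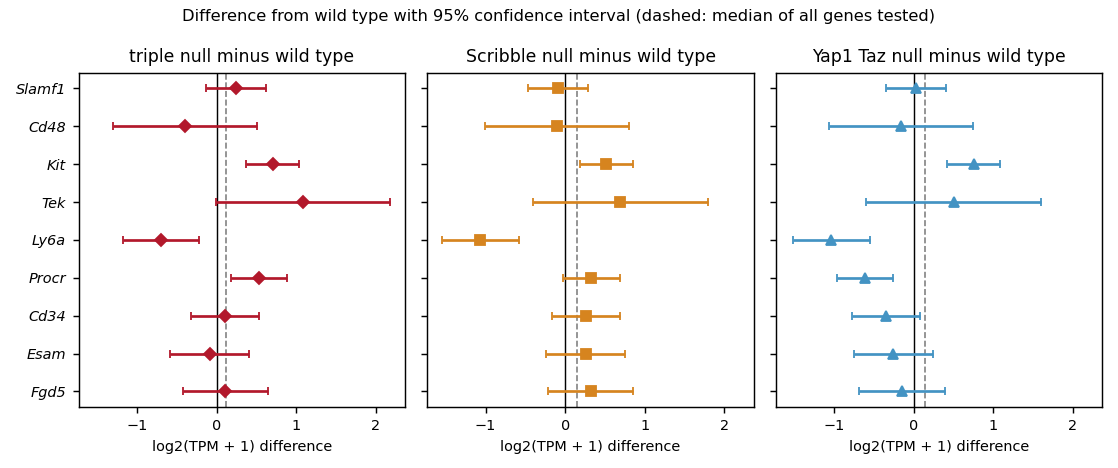
Difference from wild type on the log2(TPM + 1) scale for the 9 genes in the triple null, the Scribble null and the Yap1 Taz null, with 95% confidence intervals and a dashed line at the median of all genes tested (0.12, 0.14 and 0.14). The intervals of Kit lay above 0 and those of Ly6a below 0 in all 3 panels, and Procr stood on opposite sides of 0 in the triple null and the Yap1 Taz null.

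Some other genes of stem cell identity were called against wild type. Over all genes the share called was 0.579%, 1.3% and 0.99% in the triple, Scribble and Yap1 Taz nulls. Of 25 further surface proteins of stem cells, Neo1, a netrin and repulsive guidance molecule receptor, was called higher in the triple null. It was at 26.7 and 27.6 TPM against 6.06 and 7.31 TPM in wild type (log2 difference 1.88 ± 0.30, limma, adjusted p = 0.0434). None of the 25 was called in the Scribble null or the Yap1 Taz null. At an unadjusted p under 0.05 the counts were 8, 6 and 3 of the 25 in the triple, Scribble and Yap1 Taz nulls, beside 10.9%, 18.2% and 14.3% of all genes. Their median differences from wild type were 0.25, 0.30 and -0.00 in the triple, Scribble and Yap1 Taz nulls. Of 18 reporter and stem cell-restricted genes, Sult1a1, a sulfotransferase, was called higher in the triple null and the Scribble null, at 54.3 and 52.4 TPM and at 44.5 and 45.3 TPM against 13.5 and 20.4 TPM in wild type (adjusted p = 0.0156 and 0.0279). Of 14 surface proteins of progenitors, Csf3r, the granulocyte colony-stimulating factor receptor, was the one called higher, in the Scribble null, at 117 and 115 TPM against 52.9 and 56.7 TPM in wild type (adjusted p = 0.0371). At an unadjusted p under 0.05 the counts were 5, 7 and 4 of the 18 in the triple, Scribble and Yap1 Taz nulls. For the 14 they were 5, 6 and 5, beside the same 10.9%, 18.2% and 14.3% of all genes.

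Some markers of other cells were near 0 and others were not. Lyve1, S100a8 and Ly6g were listed at 0 in every library, Cd3e reached 0.666 TPM and Cdh5, which marks endothelium, 0.865 TPM. Among endothelial markers, Egfl7 reached 93.5 TPM and Mmrn1 108 TPM. Of 15 endothelial markers, 5 were under 0.5 TPM in all libraries, and their summed level was 240 to 252 TPM in the triple null, 226 to 231 TPM in the Scribble null, 183 to 218 TPM in the Yap1 Taz null and 201 to 214 TPM in wild type. The summed level of the T and NK cell markers was 30.7 to 33.0 TPM in the triple null, 45.8 to 67.9 TPM in the Scribble null, 35.0 to 37.1 TPM in the Yap1 Taz null and 22.5 to 24.3 TPM in wild type. Among them Klrb1c, the NK1.1 antigen of natural killer cells, was at 30.9 and 14.95 TPM in the Scribble null against 0.659 and 3.24 TPM in wild type (limma, adjusted p = 0.0653). The part of such cells in the levels of the 9 genes was not tested. None of the tested markers of endothelium (8), stroma (5), B cells (7), T and NK cells (6), erythroid cells (10) or mast cells and basophils (3) was called against wild type (limma). At an unadjusted p under 0.05 the counts were 11, 14 and 8 of these 39 in the triple, Scribble and Yap1 Taz nulls. The shares over all genes were 10.9%, 18.2% and 14.3%. Of 6 granulocyte and monocyte markers, Itgam and Prtn3 were called higher in the Scribble null. The summed level of the list was 482 to 679 TPM there against 336 to 400 TPM in wild type. Prtn3 is part of that sum, at 425 and 262 TPM against 118 and 141 TPM, so the sum gives no separate view of the list. Of 11 megakaryocyte markers, Pf4 fell in all 3 null genotypes, at 135 and 222 TPM in the triple null, 94.9 and 98.9 TPM in the Scribble null, 222 and 211 TPM in the Yap1 Taz null and 816 and 958 TPM in wild type, and Itgb3 was called higher in the Scribble null. The summed megakaryocyte level was 1072 to 1110 TPM in the triple null, 859 to 954 TPM in the Scribble null, 1069 to 1120 TPM in the Yap1 Taz null and 1558 to 1694 TPM in wild type. Like Ly6a it was lower in all 6 null libraries than in wild type, while Kit was higher, and its part in either level was not tested. The sum includes Pf4, whose fall in TPM was larger than that of the sum, so it does not show a fall of the other markers. The 11 tested markers had median log2 differences from wild type of -0.066, -0.21 and 0.19 in the triple, Scribble and Yap1 Taz nulls. Over all genes tested the medians were 0.12, 0.14 and 0.14.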

How the data were processed

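RNA from sorted bone marrow stem cells was amplified (Ovation RNA-Seq v2) before Nextera XT library preparation, per the labels' protocols. The authors deposited a TPM value per gene symbol for each of 8 libraries, per the file headers, and each library sums to 1000000. The submitters' processing notes name TopHat and the build mm10. Quantifier, annotation and use of strand are not named in the sources used here. A table of the whole series that the authors deposited holds a linear signal in a unit its header does not name, with column sums of 818363 to 888261, and served as an alternative.

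The test was limma 3.58.1 (R 4.3.3) with a mean-variance trend, applied to log2(TPM + 1). All 8 libraries entered 1 model with a mean for each genotype, since each has only 2 libraries. Genes reaching 1 TPM in 2 or more libraries were kept. Benjamini-Hochberg adjustment covered all 16064 genes in each comparison, and an adjusted p under 0.05 counted as a call. Errors are standard errors from the model, or SD where said. The fit was tested on simulated data. Departure from additivity is the triple null minus the Scribble null minus the Yap1 Taz null plus wild type. The sex difference of the Yap1 Taz null therefore enters the departure, and also the test of any difference among the genotypes. Changes of low genes are understated on this log2 scale.

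The 9 genes, the 15 lists and the rule for named genes were chosen with earlier results of these data known, so counts over them are descriptions. The rule takes the 9 genes, up to 3 genes of each list with the smallest p over the 4 genotypes, 6 receptors and ligands of related role, the genes most alike over the libraries, and the targeted genes. Genes that are the ones called in a list, and Eif2s3y, Ly6e, Lyve1, S100a8, Ly6g, Cd3e and Cdh5, were named after their values were seen. By name, a few listed genes are not reported here. Coordinates are from GENCODE M21 on GRCm38, which is mm10, and upstream sequences from RefSeq. Near-identical copies, at 95% identity over 80% of the transcript, were searched with BLAST 2.17.0. Alternatives were 2 other pseudocounts, no filter or a filter of 5 TPM, 2 other scalings, 4 other models, leaving out each library, and the table of the whole series.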

Additional observations from a re-analysis of the deposited data

Results flagged for a closer look

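For Ly6a, both Scribble null libraries lay below wild type and both triple null libraries above the Yap1 Taz null, and neither difference passed the test. Ly6a was at 148 and 231 TPM in the Scribble null against 359 and 417 TPM in wild type (log2 difference -1.06; limma, adjusted p = 0.0596). It was at 223 and 255 TPM in the triple null against 176 and 201 TPM in the Yap1 Taz null (0.34, 95% interval -0.14 to 0.82; adjusted p = 0.753), so a rise is not shown there. The difference between these 2 differences was 1.40 on the log2 scale (limma, adjusted p = 0.103), which did not pass.

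For Procr, both Yap1 Taz null libraries lay below wild type and both triple null libraries above the Scribble null, and again neither difference passed. It was at 61.1 and 70.2 TPM in the Yap1 Taz null against 100.02 and 101 TPM in wild type (-0.61; limma, adjusted p = 0.146). It was at 149 and 143 TPM in the triple null against 142 and 113 TPM in the Scribble null (0.20, 95% interval -0.15 to 0.56; adjusted p = 0.742), a value of 0.040 to 0.37 with 1 library left out, so a rise is not shown. The difference between the 2 was 0.82 on the log2 scale (limma, adjusted p = 0.163), and it did not pass either.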

How the results depend on the processing

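Of 43 log2 differences of the 9 genes that were repeated under up to 19 alternatives, 32 kept their sign throughout. The signs that turned belonged to differences that did not pass. Slamf1 in the Yap1 Taz null against wild type was -0.13 with median-ratio scaling and -0.055 with quantile normalization, and Cd34 and Fgd5 in the triple null were -0.023 and -0.021 with median-ratio scaling. With 1 library left out, the differences from wild type ran from -0.26 to 0.077 for Slamf1 and from -0.46 to 0.26 for Cd48 in the Scribble null. In the Yap1 Taz null they ran from -0.14 to 0.20 for Slamf1, -0.34 to 0.031 for Cd48, -0.53 to 0.024 for Esam and -0.40 to 0.10 for Fgd5, and in the triple null from -0.14 to 0.36 for Fgd5. Kit in the triple null against the Yap1 Taz null ran from -0.25 to 0.15, Ly6a in the Scribble null against the Yap1 Taz null from -0.35 to 0.30, and the departure of Cd34 from additivity from -0.033 to 0.44.

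In the Scribble null against wild type 1 of the 9 genes, Ly6a, was called with the 5 TPM filter, median-ratio scaling or the replicate block, and 0 to 1 with 1 library left out. In the Yap1 Taz null against wild type 1, again Ly6a, was called with median-ratio scaling or the replicate block, and 0 to 1 with 1 library left out. In the triple null against the Yap1 Taz null 0 were called, in place of Procr, with no filter (adjusted p = 0.0820), only the groups compared, no trend (0.146), the replicate block or the table of the whole series (0.112), and 0 to 1 with 1 library left out. In the Scribble null against the Yap1 Taz null 1, Procr, was called with quantile normalization (0.0463). For any difference among the genotypes 0 were called with no filter, no trend, the replicate block or the table of the whole series, and 0 to 2 with 1 library left out, while the departure from additivity gave 0 to 1. The cause of these changes was not tested.

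Replicate numbers did not pair the libraries, the correlations of deviations from group means being -0.053 to 0.026. With the replicate block the counts over all genes were 110 in place of 209 for the Scribble null against wild type, 14 in place of 29 for the triple null against the Yap1 Taz null, and 102 in place of 161 among the genotypes. Over all settings the counts were 47 to 260 for the Scribble null, 53 to 163 for the Yap1 Taz null and 39 to 103 for the triple null against wild type. They were 11 to 61, 6 to 36 and 12 to 59 for the triple null against the Scribble null, the triple null against the Yap1 Taz null and the Scribble null against the Yap1 Taz null, and 44 to 128 for the departure and 59 to 201 among the genotypes. Median-ratio scaling changed the split of higher and lower calls from 95 and 114 to 58 and 199 in the Scribble null, from 76 and 83 to 39 and 96 in the Yap1 Taz null and from 36 and 57 to 25 and 67 in the triple null against wild type. For the triple null against the Yap1 Taz null it changed from 11 and 18 to 12 and 11, and for the departure from 60 and 42 to 65 and 26. TPM keeps no depth, so counting error could not be given.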
